A study of Saccharomyces cerevisiae with 4 samples.

Results

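The genes described here encode 44 nucleolar factors of early 60S assembly in budding yeast (Saccharomyces cerevisiae), out of 6207 gene rows measured. They were chosen by name: the Nop7-Erb1-Ytm1 complex, the A3 factors, DEAD-box helicases, the Noc proteins, the Npa1 and Nsa1 modules, the placeholder proteins Mrt4 and Rlp24, and their partners. LOC1 and PUF6 were left out of the list. Every one of the 44 had a row in the table, and 43 had enough values to be tested.

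The large ribosomal subunit (60S) is built in the nucleolus on a long precursor RNA made by RNA polymerase I. Assembly factors bind this RNA in an ordered way, fold it with the help of helicases, cut and trim its spacers, hold the places of ribosomal proteins that join later, and then leave. In yeast the genes of these factors belong to a large group whose transcription is known to follow the growth rate. Loc1 is itself a nuclear RNA-binding protein of early 60S particles, and it also takes part in placing ASH1 mRNA in the bud.

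Each of 4 two-colour microarrays set RNA of loc1 knockout cells (strain PSY3262) directly against RNA of wild-type cells (strain PSY3259), so every value is the log ratio of knockout over wild type in 1 pair of cultures. The labels name 1 strain for each genotype and give no further alleles, so the strains' other markers are not stated here. The wild-type channel of array 4 carries the knockout's strain name in its strain tag, while its source description says wild type. Cultures of 50 mL in the rich medium YPD were harvested in early log phase (OD600 0.2 to 0.4) at 30 °C, and the 4 arrays are labelled as biological replicates. The ratios are averages over whole cultures, so a change in some of the cells and a smaller change in all of them cannot be told apart. Spot intensities were not used here, and with 4 arrays their number sets the precision.

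Which way the ratios run could not be read from the dyes in the labels. Across 6191 genes without LOC1, the deposited columns of arrays 1 and 4, labelled with the knockout in the same dye, had a correlation of -0.723. For arrays 2 and 3, which also share a labelled dye, it was -0.612. Each column was therefore turned so that LOC1 lay below 0, which turned arrays 2 and 4. LOC1 then stood at -1.20, -0.972, -1.07 and -1.31 on arrays 1 to 4, and only its size is a measurement, since its sign was used for the turning. "Higher" and "lower" below mean higher or lower in the knockout under this turning. With all signs turned the other way, every rise below is a fall and every fall a rise. The log base is also unstated, so values stay in the units of the deposit, written log units, and a fold assumes a base of 10.

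Genes of the early 60S factors were higher in the knockout more often than lower. Of the 43 tested, 18 rose, 3 fell and 22 did not pass the threshold, an adjusted p of 0.05 in limma's moderated test across all 6205 gene rows with Benjamini-Hochberg adjustment. MRT4, NSA2, RRP15 and RPF1 rose most, and RRP5, NOP2 and DBP10 fell. Over all genes tested 44.2% passed, 22.5% higher and 21.7% lower. Of the members 48.8% passed, close to that share, with 41.9% higher and 6.98% lower. Their median was 0.0594 log units against 0.0019 over all genes tested, and their median SD between arrays was 0.0719 against 0.0505. Without array 4, whose strain tag is at odds with its source, 19 members were higher and 2 lower, against 17.7% and 16% of all genes. Without array 1 the counts were 12 and 2, against 16.4% and 17.2%. With the opposite sign, 18 members would be lower and 3 higher.

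**Figure D1:**
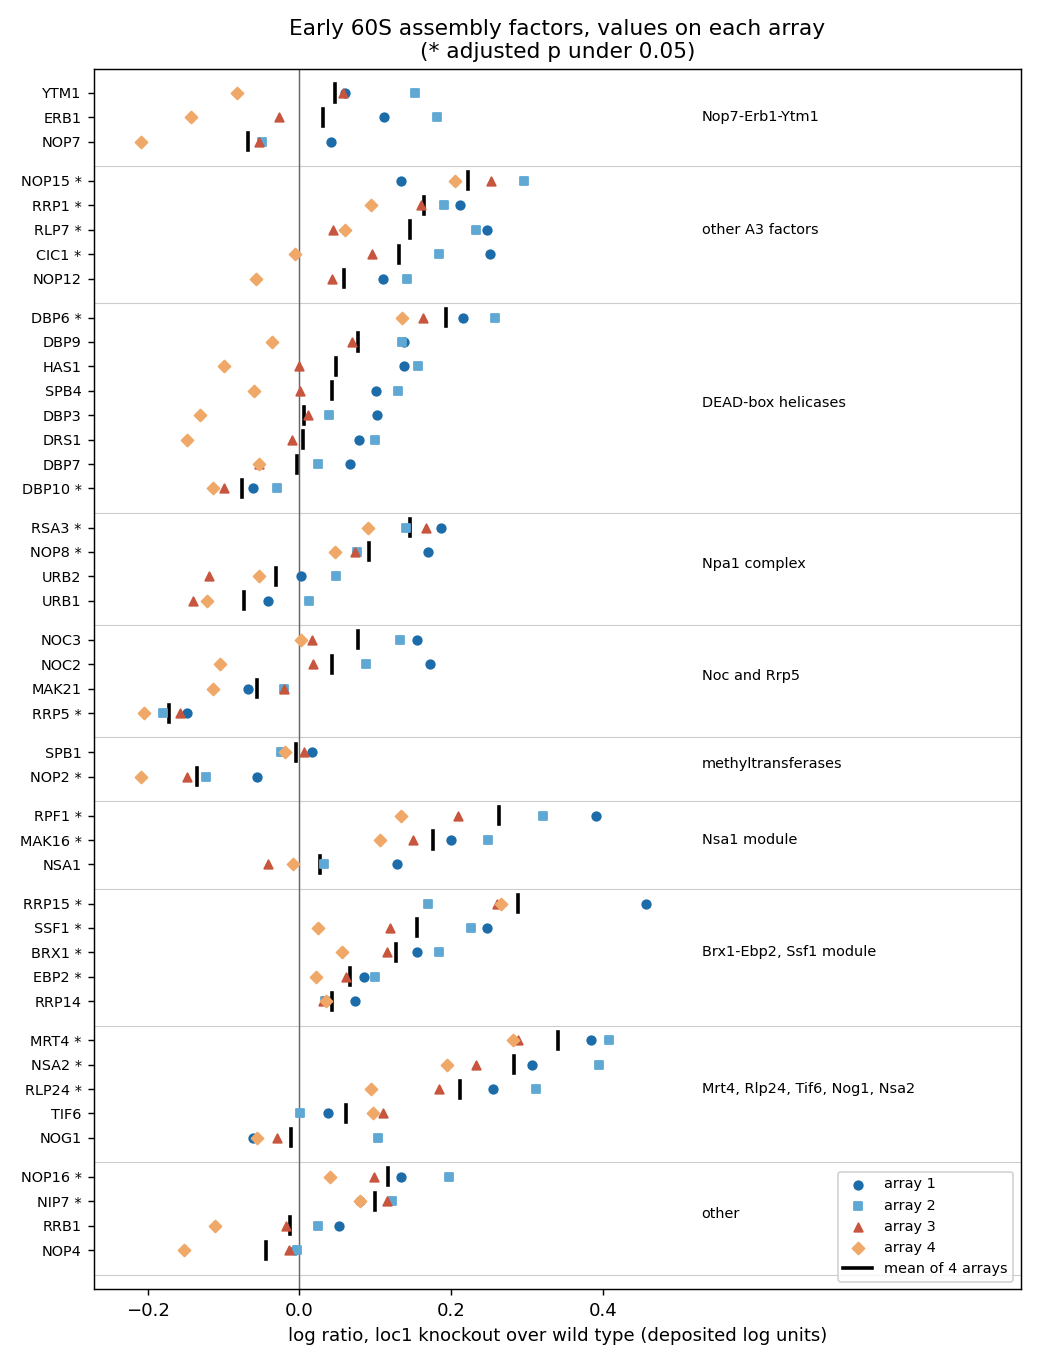
The log ratio of loc1 knockout over wild type (horizontal axis, deposited log units) is plotted for the 43 tested genes, grouped by role, with 1 symbol for each array and a black bar for the mean of the 4 arrays. Asterisks mark the 21 genes past the threshold, the mean of MRT4 lies farthest right and that of RRP5 farthest left, and arrays 1 and 2 mostly lie to the right of arrays 3 and 4.

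Among the proteins that hold places on the particle for later arrivals and the factors that act beside them, the genes MRT4, NSA2 and RLP24 rose. Mrt4 resembles the ribosomal stalk protein P0 and occupies its site on the precursor. MRT4 (YKL009W) stood at 0.384, 0.408, 0.287 and 0.281 log units on arrays 1 to 4. All 4 values were above 0, and the mean of 0.340 ± 0.0655 (SD, n = 4) had an adjusted p of 0.00013 in limma and would be 2.19-fold in base 10. NSA2 (YER126C), which encodes a factor needed to process a spacer of the precursor RNA, had 0.307, 0.395, 0.232 and 0.195. Its mean was 0.282 ± 0.0884 (SD, n = 4; limma adjusted p = 0.00065). RLP24 (YLR009W), whose product resembles ribosomal protein L24 and keeps its place, had 0.255, 0.311, 0.184 and 0.0942, and its mean of 0.211 ± 0.0939 also passed (SD, n = 4; limma adjusted p = 0.0026). For all 3 genes arrays 1 and 2 lay above arrays 3 and 4, without overlap, as they did in 33 of the 43 tested members. The share over all genes was not counted.

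The other genes of this group did not pass. TIF6 (YPR016C), whose product keeps the unfinished large subunit from joining the small one, averaged 0.0617 and was above 0 on every array. Its order was unlike that of most members, with 0.110 and 0.0972 on arrays 3 and 4, and 0.038 and 0.0014 on arrays 1 and 2. NOG1 (YPL093W), which encodes a GTPase of the same particles, averaged -0.0106 and was above 0 on array 2 only.

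Of 8 genes of the Nsa1 module and of the groups around Brx1 and Ssf1, 6 rose. RPF1 (YHR088W), a Brix-domain protein gene, had 0.391, 0.321, 0.208 and 0.134 log units on arrays 1 to 4. Its mean was 0.263 ± 0.115 (SD, n = 4; limma adjusted p = 0.0017), and the highest value was on array 1 and the lowest on array 4. MAK16 (YAL025C), whose product binds Rpf1 in the module, had 0.200, 0.248, 0.150 and 0.107, with a mean of 0.176 ± 0.0612 (SD, n = 4; limma adjusted p = 0.0020). NSA1 (YGL111W) itself averaged 0.0276 and did not pass, with values on both sides of 0.

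Ssf1, Rrp14 and Rrp15 form a further module, of which RRP15 and SSF1 rose and RRP14 did not pass. RRP15 (YPR143W) had 0.457, 0.170, 0.260 and 0.265 on arrays 1 to 4, and was highest on array 1. Its mean was 0.288 ± 0.121 (SD, n = 4; limma adjusted p = 0.0014). SSF1 (YHR066W), another Brix gene, had 0.247, 0.226, 0.120 and 0.0249. Its mean of 0.155 ± 0.103 passed at an adjusted p of 0.012 in limma (SD, n = 4), but not without array 1, where the adjusted p was 0.059. SSF1 has a near-identical copy, SSF2, at 0.0927 ± 0.0635, and the signals of these genes may be mixed. RRP14 (YKL082C) had 0.0736 on array 1 and 0.0310 to 0.0347 on the others. Of the bound pair Brx1 and Ebp2, BRX1 (YOL077C) rose by 0.128 and EBP2 (YKL172W) by 0.0672, and the call of EBP2 was lost when any single array was left out (adjusted p up to 0.134).

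The A3 factors are a mutually dependent set needed to trim a spacer of the precursor RNA, and outside the Nop7 complex 4 of 5 genes rose, NOP12 counted with them. NOP15 (YNL110C), an RNA recognition motif protein gene, had 0.134, 0.296, 0.252 and 0.205 on arrays 1 to 4, and its mean of 0.222 ± 0.0694 passed (SD, n = 4; limma adjusted p = 0.00097). RRP1 (YDR087C), whose product also joins the Nsa1 module, had 0.212, 0.190, 0.160 and 0.0939, with a mean of 0.164 ± 0.0513 (SD, n = 4; limma adjusted p = 0.0020). Both were above 0 on every array. RLP7 (YNL002C), whose product resembles ribosomal protein L7, had 0.247 and 0.232 on arrays 1 and 2, and 0.0448 and 0.0604 on arrays 3 and 4. Its mean of 0.146 ± 0.108 (SD, n = 4; limma adjusted p = 0.018) did not pass without array 1 (0.112, adjusted p = 0.081) or array 2 (0.117, adjusted p = 0.056). CIC1 (YHR052W) rose by 0.131 and was at -0.0054 on array 4. It lost its call without array 1, 2 or 3 (adjusted p of 0.118, 0.081 and 0.061). NOP12 (YOL041C) averaged 0.0594 and did not pass.

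None of the 3 genes of the Nop7-Erb1-Ytm1 complex passed. NOP7 (YGR103W) had 0.0413, -0.0489, -0.0527 and -0.208 log units on arrays 1 to 4, a mean of -0.0671 ± 0.104 (SD, n = 4; limma adjusted p = 0.18). ERB1 (YMR049C) had 0.111, 0.182, -0.0262 and -0.143, and YTM1 (YOR272W) had 0.0605, 0.153, 0.0572 and -0.0822. All 3 genes were lowest on array 4, where each was below 0, and their SDs of 0.0970 to 0.145 exceeded their means in size.

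The RNA helicases, which unwind or remodel the precursor RNA with ATP, mostly did not pass. DBP6 (YNR038W) was the exception on the high side, with 0.216, 0.258, 0.163 and 0.135 on arrays 1 to 4 and a mean of 0.193 ± 0.0550 (SD, n = 4; limma adjusted p = 0.0011). DBP10 (YDL031W) was the exception on the low side, at -0.0613, -0.0298, -0.0994 and -0.114. Its mean of -0.0760 ± 0.0379 passed (SD, n = 4; limma adjusted p = 0.034), but not without array 1, 3 or 4 (adjusted p of 0.072, 0.131 and 0.130). The other 6 tested helicase genes had means between -0.0037 and 0.0766. Among these HAS1 (YMR290C), whose product serves both subunits, averaged 0.0488, SPB4 (YFL002C) 0.0428 and DBP3 (YGL078C) 0.0057, and each was above 0 on arrays 1 and 2 and below 0 on array 4. DBP9 (YLR276C) was highest of the 6 at 0.0766, with 0.138, 0.135 and 0.0694 on arrays 1 to 3 and -0.0358 on array 4. DRS1 (YLL008W) was among the members closest to 0, and its mean of 0.0052 came from 0.0788 and 0.0995 on arrays 1 and 2 and -0.0094 and -0.148 on arrays 3 and 4. DBP7 (YKR024C) had the same signs, with 0.0667 and 0.0247 on arrays 1 and 2, and -0.0534 and -0.0529 on arrays 3 and 4. MAK5 (YBR142W) was not tested: it had values on arrays 2 and 3 only, both at the table's limit of 2 in size and of opposite sign after turning.

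Dbp6 works with Npa1 (URB1), Npa2 (URB2), Rsa3 and Nop8 in 1 early complex, whose genes covered a wide range. DBP6, RSA3 (YLR221C) and NOP8 (YOL144W) rose, RSA3 by 0.145 ± 0.0416 and NOP8 by 0.0913 ± 0.0536 (SD, n = 4). NOP8 did not pass without array 1 (adjusted p = 0.092) or array 3 (adjusted p = 0.065). URB1 (YKL014C) averaged -0.0728 ± 0.0709 and URB2 (YJR041C) averaged -0.0305 ± 0.0719, and neither passed.

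RRP5 and NOP2 had the deepest falls. Rrp5, a long RNA-binding protein that serves both subunits and joins Noc1 (MAK21) and Noc2, is encoded by RRP5 (YMR229C), which stood at -0.147, -0.179, -0.158 and -0.204 log units on arrays 1 to 4. All 4 values lay close together, and the mean of -0.172 ± 0.0251 (SD, n = 4) had an adjusted p of 0.00086 in limma and would be 1.49-fold lower in base 10. NOP2 (YNL061W), a methyltransferase gene for a cytosine of the 25S RNA, had -0.0558, -0.123, -0.149 and -0.209. It was below 0 on every array, at -0.134 ± 0.0634 (SD, n = 4; limma adjusted p = 0.0071). SPB1 (YCL054W), the gene of another methyltransferase of the 25S RNA, was near 0, with 0.0167, -0.0241, 0.0063 and -0.0191, and a mean of -0.0050. MAK21 (YDR060W) at -0.0556, NOC2 (YOR206W) at 0.0432 and NOC3 (YLR002C) at 0.0769 did not pass.

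Of the remaining members, NIP7 (YPL211W), whose product binds Nop8, rose by 0.0997 ± 0.0225, and NOP16 (YER002W) by 0.117 ± 0.0657 (SD, n = 4). NOP16 did not pass without array 1 (adjusted p = 0.053). NOP4 (YPL043W), another RNA recognition motif protein gene, averaged -0.0439, and RRB1 (YMR131C), which encodes a chaperone of ribosomal protein L3, averaged -0.0129. Neither passed.

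The change followed coding length across the members, a relation looked at after their values were seen. Across the 43 tested members, Spearman's rho between mean change and coding length was -0.802, and it lay between -0.836 and -0.640 on single arrays. Of the 15 members of at most 1245 bases, the median of all genes, 14 rose and none fell. Of the 28 longer ones 4 rose and 3 fell. Among all genes of up to 771 bases 42.2% rose and 7.58% fell, and from 774 to 1245 bases 26.8% and 15.9%. From 1248 to 1911 bases 15% of all genes rose and 26.8% fell, and from 1914 bases upward 5.97% and 36.7%. A smaller share of the longer members fell, 6.67% and 15.4% in these last ranges. TIF6 was the only short member that did not pass, and DBP6, SSF1, NOP8 and EBP2 were the longer ones that rose. The same relation ran through the whole table more weakly, with rho = -0.417 over 5635 genes with a length and -0.431 to -0.302 on single arrays. These are correlations across genes that share the same 4 arrays, so they describe and carry no p, and with the sign turned they become 0.802 and 0.417.

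**Figure D2:**
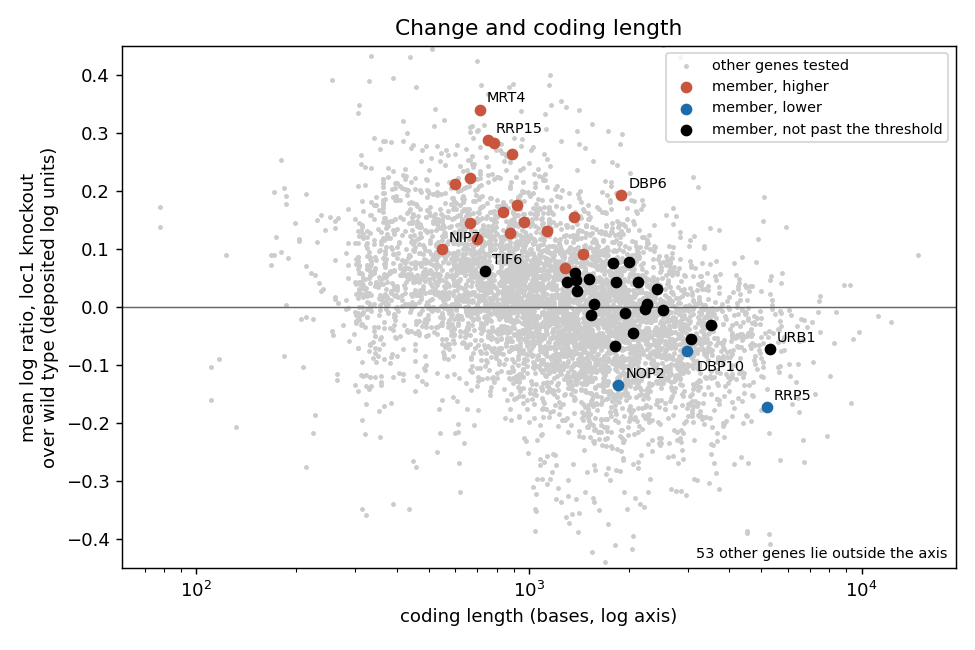
Mean log ratio of loc1 knockout over wild type (vertical axis, deposited log units) is plotted against coding length in bases on a log axis for the 43 members (large points, coloured by call) and all other genes (grey). Members of up to 1131 bases lie above 0, and RRP5 and URB1, the longest members, lie below it; 53 other genes lie beyond the vertical axis.

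The members were then set beside all genes of like length. With all genes put into 4 length classes of like size, 7 of 8 members rose and none fell in the shortest class, where 42.2% of all genes rose and 7.58% fell. In the next class all 7 rose, against 26.8% of all genes, of which 15.9% fell. Of 15 members in the class from 1248 to 1911 bases, 4 rose and 1 fell, against 15% and 26.8% of all genes. In the longest class none of 13 members rose and 2 fell, against 5.97% and 36.7% of all genes, and URB1, at 5295 bases the longest member, was among those that did not pass. The classes were set after the values were seen, and these counts are a description.

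**Figure D3:**
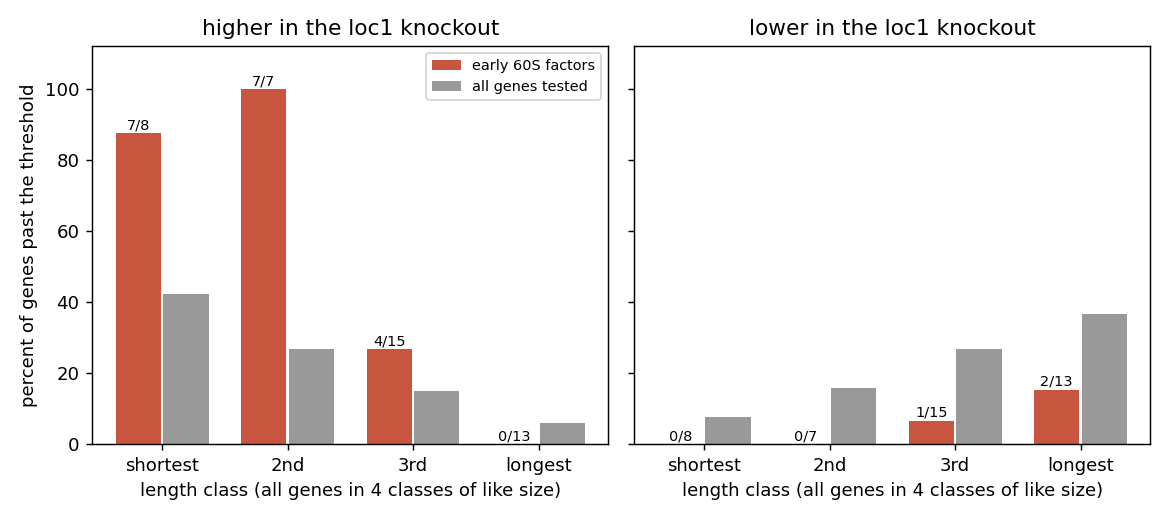
Bars give the percent of genes past the threshold (vertical axis) that were higher (left) or lower (right) in the loc1 knockout, for the early 60S factors (red, with counts) and all genes tested (grey), in 4 classes of coding length. The share of members that were higher is 87.5% and 100% in the 2 shorter classes and 0% in the longest, where the share of all genes is 42.2% in the shortest and 5.97% in the longest.

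Each array was then corrected for its own trend over coding length, a setting added after the data were seen. Of the 18 risen members 16 kept their call, NOC3 and DBP9 were added, and NIP7 (0.0409, adjusted p = 0.14) and NOP16 (0.0666, adjusted p = 0.069) were lost. RRP5 at -0.100 and NOP2 at -0.105 stayed lower, and DBP10 did not pass at -0.0223 (adjusted p = 0.45). MRT4 stood at 0.291 and DBP6 at 0.223 after the correction, which lowered MRT4 and raised DBP6. The median of the members became 0.0708, against 0.0002 over all genes. Over all genes 20% were then higher and 21.5% lower. Among the members rho with length was still -0.587, against -0.0149 over all genes. The part that length, or anything that goes with it on these arrays, has in the changes of the members was not tested.

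**Figure D4:**
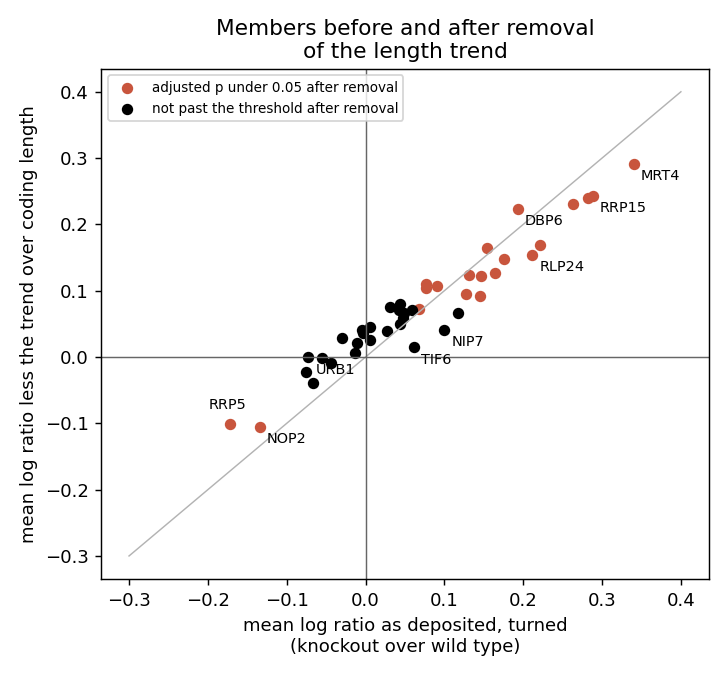
For each of the 43 members the mean log ratio of loc1 knockout over wild type is plotted as turned (horizontal axis) and after each array's trend over coding length was removed (vertical axis), both in deposited log units; the grey line marks equal values. MRT4 has the highest mean on both axes, DBP6 lies above the line of equal values, RRP5 and NOP2 remain below 0, and URB1 moves to 0.

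The size of the changes differed between arrays. The median of the members was 0.111, 0.129, 0.0428 and -0.0087 on arrays 1 to 4, while that of all genes was 0.007, 0.0107, 0.0013 and -0.0119. Of the 43 members, 36, 36, 28 and 20 were above 0 on these arrays. In 41 of 43 members the mean of arrays 1 and 2 was above that of arrays 3 and 4, as it was in 57.9% of all genes. Fitted alone, arrays 1 and 2 gave 19 members higher and 1 lower, where 10.2% and 8.93% of all genes were called, and arrays 3 and 4 gave 13 higher and 6 lower, where 22.2% and 24.5% were. The values of the members nevertheless went together between arrays. Pearson correlations between arrays were 0.761 to 0.904 across the members, against 0.611 to 0.753 across all genes. By the labels the knockout was in Cy5 on 1 array of each pair and in Cy3 on the other. The labelled dyes did not give the direction of the ratios, and whether this split goes with the dye was not tested. In all, 25 of 43 members (58.1%) had 1 sign on every array, against 56.6% of all genes, 20 of them above 0 and 5 below, against 28.5% and 28% of all genes.

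**Figure D5:**
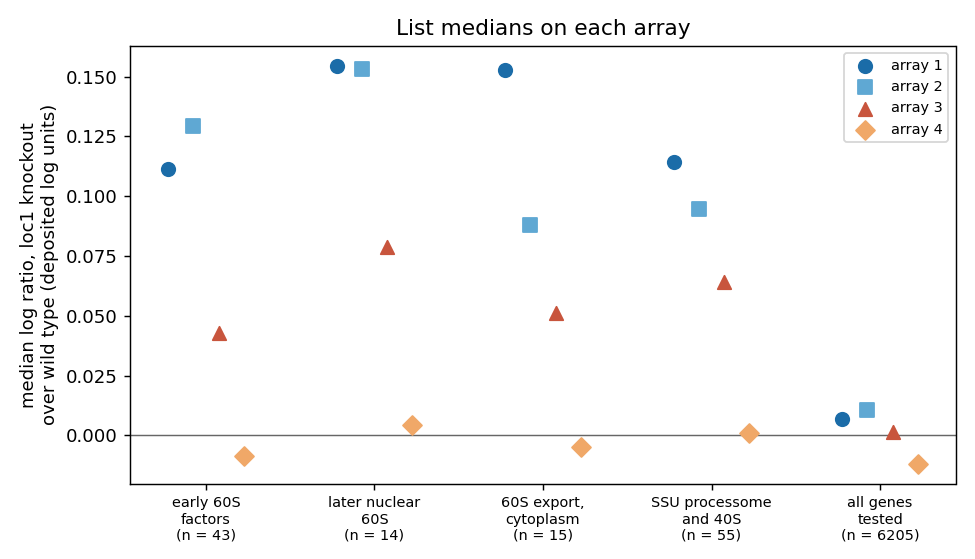
The median log ratio of loc1 knockout over wild type (vertical axis, deposited log units) is plotted on each of the 4 arrays for the early 60S factors, 3 related lists and all genes tested. The assembly lists lie highest on arrays 1 and 2 and between -0.0087 and 0.0042 on array 4.

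Related lists of ribosome assembly genes are given beside the shares over all genes tested, 22.5% higher and 21.7% lower with a median of 0.0019, and no difference between lists was tested. Of 14 later nuclear 60S factors 7 (50%) rose and none fell, with a median of 0.101. Among them CGR1 stood at 0.213 and IPI1, a subunit gene of the Rix1 complex, at 0.191. Of 15 genes for 60S export and cytoplasmic maturation 7 (46.7%) rose and none fell, with a median of 0.0750, led by SDO1, whose product helps to release Tif6, at 0.367 and ALB1 at 0.211. Of 55 genes of the small-subunit processome and small-subunit assembly 23 (41.8%) rose and 3 (5.45%) fell, with a median of 0.0728, led by IMP4 at 0.380 and UTP9 at 0.303. On array 4 their medians were 0.0042, -0.0049 and 0.001, so these lists shared the low position of that array. In the RefSeq gene table NSA2 lies next to LCP5 (0.171) and SSF1 next to RRP3 (0.163), divergently transcribed neighbours from the small-subunit list that both rose, while RSA3 lies next to UTP13, which did not pass at -0.0534.

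Partners of Loc1 outside the list were also measured. Puf6 is an RNA-binding protein that works with Loc1 to place ribosomal protein Rpl43 on the precursor. PUF6 had 0.218, 0.258, 0.163 and 0.0429 on arrays 1 to 4, a mean of 0.170 ± 0.0934 (SD, n = 4; limma adjusted p = 0.0064), and so followed the arrays in the way of most members. Of the paired genes for Rpl43, RPL43A rose by 0.247 and RPL43B was lower, at -0.0875; these are near-identical copies whose signals may be mixed.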

How the data were processed

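Values were the authors' deposited log ratios, a single value for each gene on each array, of unstated base and treated here as log10 only where a fold is given. The table had 6210 rows, of which 3 control rows were left out. This base is inferred from the values, which end at exactly 2 in size (22 values; the largest below was 1.41); scanner, background correction and normalization: not given in the sources used here. Arrays held 6198 to 6207 gene values. Columns were turned on LOC1 and not centred. Rows with at least 3 values were fitted with limma 3.58.1 in R 4.3.3 (lmFit, eBayes, mean against 0, two-sided, Benjamini-Hochberg over 6205 rows); exact sign flips of 4 arrays cannot go below p = 0.125. On simulated data of 6192 genes, 24% of genes changed by 0.1, 80% by 0.2, 92% by 0.3 and 100% by 0.5 log units were recovered. The simulation left most genes unchanged and drew the noise of each value independently. In the data 44.2% of genes passed, so these shares need not hold there.

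Symbols and coding lengths came from the RefSeq table of assembly R64 (5654 rows matched, all 44 members). Of the lengths 97.0% are multiples of 3, and a length of either kind may include introns. Array probes and build are not given, so no coordinates are printed. The length trend was a robust loess over log2 length (span 0.5).

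Members, lists and tests were chosen with earlier results of these data known. Full values are given for the 12 largest changes past the threshold, every fallen member, NOP7, ERB1 and YTM1, the 3 means nearest 0, LOC1 and PUF6; of the other lists, at most the 2 largest changes. Other genes were named after their values were seen.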

Additional observations from a re-analysis of the deposited data

Results flagged for a closer look

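In 2 of the 43 tested members, 1 array stood apart from the other 3 by Dixon's test, which chance alone gives in about 1 in 20 groups. RRP14 was at 0.0736 log units on array 1 and between 0.0310 and 0.0347 on the others. NOP4 was at -0.152 on array 4 and between -0.0139 and -0.0036 on the others. Neither gene passed the threshold over all 4 arrays.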

How the results depend on the processing

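Each array holds its own pair of cultures, so the test of the mean ratio against 0 was already paired. Centring, scaling, the filters, robust eBayes and the array weights gave 18 or 19 members higher and 3 or 4 lower. Of all genes in these fits, 1383 to 1510 of 6179 to 6207 were higher and 1340 to 1493 lower. A term for the labelled dye or for the deposited sign gave 17 higher and 2 lower. Of all 6192 genes tested, the dye term gave 1330 higher and 1274 lower, and the sign term 1163 and 1136. Leaving out 1 array in turn gave 12 to 19 higher and 2 to 4 lower, with a median of 0.0427 to 0.0922. Over all 6205 genes these fits gave 1019 to 1297 higher and 988 to 1301 lower. Of the 18 higher and 3 lower members, 12 and 2 kept their call in all 4 of these fits. That count was not made over all genes. Arrays 1 and 2 alone gave 1 member lower and a median of 0.123, and arrays 3 and 4 alone gave 6 and a median of 0.0096. With arrays turned by the labelled dyes, limma called 0 members higher and 0 lower, 2 had an unadjusted p under the threshold, and 1 gene of the whole table passed; the following then changed sign: NOP15 -0.00695, DBP10 0.0305, RRP5 0.00869, NOP2 0.0446, LOC1 0.0518. With all signs turned, 3 members were higher and 18 lower, the median was -0.0594, and the values were RRP1 -0.164, NOP15 -0.222, CIC1 -0.131, RLP7 -0.146, DBP6 -0.193, DBP10 0.076, NOP8 -0.0913, RSA3 -0.145, RRP5 0.172, NOP2 0.134, RPF1 -0.263, MAK16 -0.176, BRX1 -0.128, EBP2 -0.0672, SSF1 -0.155, RRP15 -0.288, MRT4 -0.340, RLP24 -0.211, NSA2 -0.282, NIP7 -0.0997, NOP16 -0.117, LOC1 1.14, PUF6 -0.170. The cause of these differences was not tested. Depth cannot be judged without intensities, and background correction, normalization and slide could not be varied. The promoter search planned with the named genes was not run.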
